A study of Mus musculus with 8 samples.

Results

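Cytochrome P450 genes were followed across brain RNA from mice given water or rosemary extract (RE). A gene was taken as a member when its symbol in the array annotation began with Cyp followed by a number and a letter, and each gene was represented by its row with the highest mean over the 8 arrays. This gave 98 genes of 19505 named on the array, each with 1 row. By the RefSeq gene table, 94 of them are protein-coding and 4 are transcribed pseudogenes (Cyp2d13, Cyp2d37-ps, Cyp4b1-ps2 and Cyp4f41-ps). Cyp19a1 and Cyp4v3, which had been listed for reporting, were not analysed here.

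All mice were male ICR mice, an outbred stock, bought at 8 weeks of age and used after 1 week of acclimatization. The tail suspension test (TST) hangs a mouse by its tail as a short inescapable stress. There were 4 groups with 2 arrays in each: unstressed water (water without TST), stressed water (water with TST), and a low and a high dose of RE, each with TST, given by mouth for 7 days with the extract dissolved in the drinking water. Low-dose RE was 10 mg/kg. High-dose RE is given as 100 mg/kg in the sample titles and the treatment protocol but as 50 mg/kg in the source names, so it is called the high dose throughout. Every RE group was also given TST, and no group had RE without it. The labels assign 7 mice to each group but leave unsaid if the duplicate RNA came from separate mice or from pools, so each p-value reflects just the spread of these samples, which may be technical. In another field the unstressed water group is named Positive Control and the stressed water group Negative control, and the titles were followed. The tissue is labelled limbic system in some fields and hippocampus in another.

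P450 enzymes are haem proteins that insert oxygen into small lipophilic molecules with electrons passed to them by redox partners such as cytochrome P450 reductase and cytochrome b5. Families Cyp1 to Cyp3 are best known for clearing drugs and dietary compounds in the liver, family Cyp4 for hydroxylating fatty acids and eicosanoids, and the remaining families for making or breaking down sterols, steroid hormones, bile acids, vitamin D and retinoic acid. In the brain the best described member is Cyp46a1, the neuronal enzyme that hydroxylates cholesterol so that it can leave the tissue.

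The sequence just before the start of 5 members is printed below because these genes recur in the results. Cyp46a1 and Cyp20a1 were above the median of all values on every array. Cyp4f37 and Cyp2j8 passed the study's own threshold, given below, in more than 1 comparison. Cyp1a1 is the textbook gene induced by foreign compounds and was dim here. Each line holds the 100 bases before the gene's first listed start in RefSeq on GRCm38.p6, read 5′ to 3′ on the gene's strand, with every CG dinucleotide in capitals. The windows are chr12:108334216-108334315 (plus strand) for Cyp46a1, chr1:60343200-60343299 (plus) for Cyp20a1, chr17:32621219-32621318 (plus) for Cyp4f37, chr4:96507398-96507497 (minus) for Cyp2j8 and chr9:57697513-57697612 (plus) for Cyp1a1.
Cyp46a1: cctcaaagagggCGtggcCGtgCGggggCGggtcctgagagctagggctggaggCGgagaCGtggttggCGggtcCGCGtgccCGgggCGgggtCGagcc
Cyp20a1: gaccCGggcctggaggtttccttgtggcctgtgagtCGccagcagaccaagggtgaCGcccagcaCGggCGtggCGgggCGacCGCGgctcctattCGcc
Cyp4f37: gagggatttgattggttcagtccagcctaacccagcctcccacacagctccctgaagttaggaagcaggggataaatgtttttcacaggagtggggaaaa
Cyp2j8: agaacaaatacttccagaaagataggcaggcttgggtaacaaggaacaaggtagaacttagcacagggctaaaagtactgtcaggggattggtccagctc
Cyp1a1: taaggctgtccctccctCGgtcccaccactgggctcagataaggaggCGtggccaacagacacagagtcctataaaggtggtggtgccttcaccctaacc
The Cyp46a1 window holds 12 CG dinucleotides, the Cyp20a1 window 10, the Cyp1a1 window 2, and the other two hold 0. Over the 250 bases before the start, 72 of the 98 members had an entry, and their median was 2 CG dinucleotides against 6 over all 32851 promoters in the table. In this and the shares below, a member counts once, by its first listed start. The 32851 promoters are all entries, without a limit of 1 per gene, so the sets are not fully alike. At least 10 were found in 9.72% of the members and 37.8% of all promoters. Among members above the median level, 8 had an entry, and only Cyp46a1 with 23 and Cyp20a1 with 15 reached 10; 5 of the 64 dimmer members did. The letters TATAAA, searched on both strands, occurred in 36.1% of the members and 12.4% of all promoters. GGGCGG occurred in 20.8% and 32.7%, and GCGTG in 19.4% and 28.2%, each searched on both strands and able to overlap the others where they share bases. These matches describe the letters in the window. Cyp2d13, Cyp2d22, Cyp2u1, Cyp4x1 and Cyp7b1 are named only.

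The arrays were not alike before any P450 gene was considered. Water with TST replicate 2 correlated at 0.967 to 0.978 with the other arrays, which correlated at 0.983 to 0.993 among themselves. Of 10 measured markers of cerebellar granule and Purkinje cells, 7 were above the median of all values, and the list stood 4.74 above its own 8-array mean (log2) on water with TST replicate 2. It was at 2.79 on the first unstressed array, water without TST replicate 1, against -1.60 to -0.50 on the other 6. Its granule cell marker Gabra6 read 14.31 and 8.42 in water without TST, 5.40 and 16.37 in water with TST, and 4.69 to 7.64 in the RE groups. The 7 measured markers of forebrain excitatory neurons, 6 of them above the median, were at -2.30 on water with TST replicate 2 and between -0.09 and 0.63 on the others. Thalamic markers (7 measured) were lowest on the same array, at -1.26, and highest on low-dose RE replicate 1, at 1.00. Choroid plexus markers (7 measured, 5 above the median) were at -1.64 on water with TST replicate 2. On water without TST replicate 2 the 6 striatal projection neuron markers, all above the median, stood at 1.90, against -1.19 to 0.21 on the other 7 arrays, and the 6 hypothalamic markers, 1 above the median, at 1.42. Hepatocytes are the main site of most P450s, and 0 of 8 hepatocyte markers were above the median of all values and the list stayed between -0.21 and 0.27. In bulk RNA, fewer cells of a type and less RNA per cell cannot be told apart. The part of these differences in the P450 results was not tested, and values without the arrays concerned are given beside the results they touch.

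Most P450 genes were dim in this tissue. The median of all deposited values was 7.47 (log2 intensity), and 13 of the 98 members (13.3%) had an 8-array mean above it, compared with 9989 of the 19505 named genes (51.2%). Of these, 11 were above it on all 8 arrays, 80 members were above it on none, and 7 on some. On single arrays 11 to 15 members exceeded it. Only 5 (Cyp46a1, Cyp2d13, Cyp2j9, Cyp2d22 and Cyp2u1) exceeded the 75th percentile of 10.2. The member means ran from 3.57 for Cyp1a2 to 11.76 for Cyp46a1, with a median of 5.39. Just inside the limit was Cyp4f18 with a mean of 7.67, and just outside it were Cyp4f16 with 7.42 and Cyp4f37 with 7.34. Brightness depends on the probes as well as on the RNA, and no detection call accompanies the values, so members were set against the median only and not ranked against each other.

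**Figure D1:**
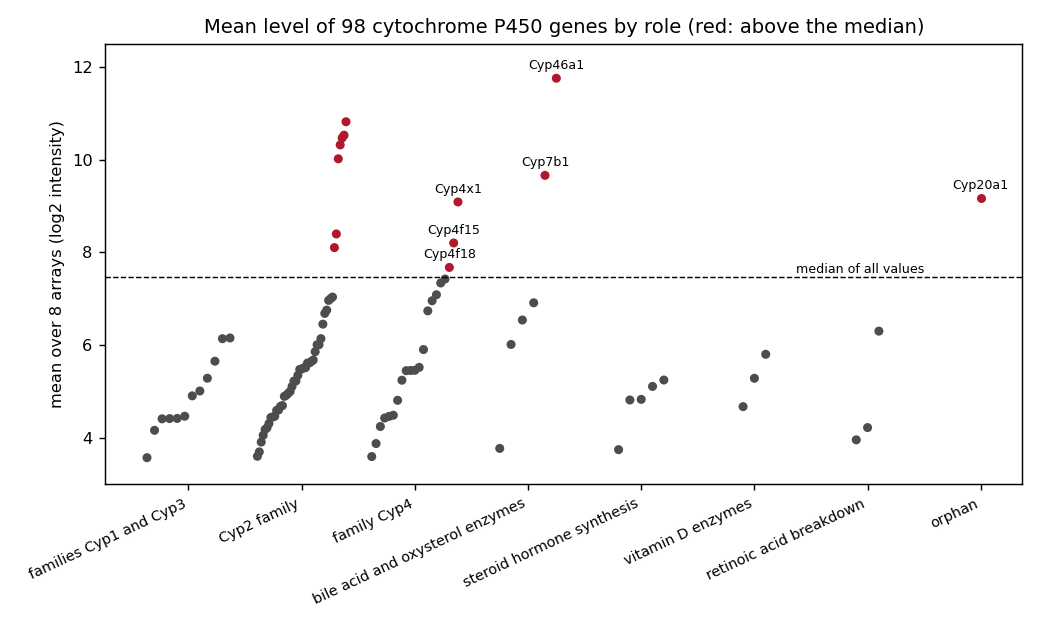
Mean of the 8 arrays (log2 intensity, vertical axis) for each of the 98 members, 1 point per gene, arranged by role along the horizontal axis. The dashed line is the median of all deposited values, 7.47, and the 13 red points lie above it: 7 in the Cyp2 family, 3 in family Cyp4, 2 among the bile acid and oxysterol enzymes, and the orphan Cyp20a1.

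The drug-clearing families Cyp1 and Cyp3 had 0 of 12 members above the median. Cyp1a1, a target of the aryl hydrocarbon receptor, ran from 4.18 to 4.63 over the 8 arrays, Cyp1a2 from 3.31 to 3.77 and Cyp1b1 from 4.51 to 5.61. Cyp3a13 ran from 5.69 to 6.38, and the other 8 Cyp3a genes had means from 4.16 to 6.15. Cyp3a41a and Cyp3a41b, which are near-identical copies, both had their highest value on water with TST replicate 2 (4.74 and 5.38) and their lowest on water with TST replicate 1 (3.62 and 3.81). Probes of such copies may bind each other's RNA, so that Cyp2c, Cyp2d, Cyp2j, Cyp3a, Cyp4a and Cyp4f values in particular may not belong to 1 gene. In the RefSeq gene order 71 of the 94 members with a position have another Cyp gene as a protein-coding neighbour, and 7 of the 12 such members above the median do. Among them are all 7 Cyp2j members and 8 of the 9 Cyp4f members with a position.

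The Cyp2 family, here and below without Cyp2r1, which is counted with the vitamin D enzymes, held 7 bright members of 47, and the subfamilies differed. Subfamily Cyp2d had 4 of 9 above the median and Cyp2j 2 of 7, while Cyp2c had 0 of 14. Cyp2d13, listed as a pseudogene, read 10.72 and 10.58 in water without TST, 10.66 and 11.05 in water with TST, 10.53 and 11.29 in low-dose RE, and 10.98 and 10.78 in high-dose RE. Cyp2d22, regarded as the mouse counterpart of the human drug-metabolising CYP2D6, read 10.78 and 10.43, 10.58 and 12.23, 10.24 and 9.86, and 9.73 and 9.92 in the same order of groups. Its single value above 11 was water with TST replicate 2, and the RE arrays were all below the 4 water arrays. Cyp2d10 lay between 7.86 and 8.97 and Cyp2d9 between 7.79 and 8.35. The group ranges of Cyp2d13 and Cyp2d9 overlapped in every pair of stressed groups.

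Cyp2j enzymes convert arachidonic acid to epoxides. Cyp2j9 read 10.78 and 10.84 in water without TST, 10.40 and 10.88 in water with TST, 10.75 and 10.07 in low-dose RE, and 10.27 and 10.28 in high-dose RE. Its relative Cyp2j6 read 10.25 and 10.32, 10.15 and 9.47, 10.24 and 9.91, and 10.11 and 9.74. Both unstressed arrays were above the RE arrays for these paralogs. Cyp2u1, which hydroxylates long-chain fatty acids, read 9.96 and 10.13, 10.32 and 10.56, 10.26 and 10.40, and 10.63 and 10.29, so that the unstressed arrays were the lowest pair. Cyp2e1, the ethanol-inducible enzyme, stayed between 5.18 and 6.18, and Cyp2s1 between 6.48 and 7.30.

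In family Cyp4, whose enzymes hydroxylate the end of fatty acid and eicosanoid chains, 3 of 21 members were above the median. Cyp4x1, a form described in brain, read 8.90 and 8.76 in water without TST, 8.98 and 8.76 in water with TST, 9.52 and 9.33 in low-dose RE, and 9.09 and 9.36 in high-dose RE. All 4 RE arrays were above all 4 water arrays. Cyp4f15 read 7.47 and 8.01, 8.53 and 7.19, 8.26 and 8.78, and 8.35 and 9.03, and its lowest value was again water with TST replicate 2. Cyp4f18 stayed between 7.28 and 8.02 and Cyp4f14 between 6.27 and 7.31. All 8 Cyp4a genes were dim, with means from 3.59 to 5.52.

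Of the bile acid and oxysterol enzymes 2 were above the median, Cyp46a1 and Cyp7b1. Cyp46a1 read 11.41 and 12.13 in water without TST, 12.41 and 9.95 in water with TST, 12.16 and 11.86 in low-dose RE, and 11.97 and 12.16 in high-dose RE. It was lowest on the array on which forebrain excitatory markers were also lowest, and highest on the other array of the same group. Cyp7b1, an oxysterol hydroxylase, read 9.74 and 9.45, 9.98 and 9.28, 9.88 and 9.67, and 9.56 and 9.74, within 0.70 in all. Cyp39a1, which acts on the product of Cyp46a1, ran from 6.52 to 7.34. Cyp27a1, the mitochondrial sterol hydroxylase, ran from 5.32 to 7.28, again with its highest value on water with TST replicate 2, and the liver bile acid enzymes Cyp7a1 (6.0 to 7.23) and Cyp8b1 (3.47 to 4.07) stayed below the median.

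The enzymes of steroid hormone synthesis were below the median on every array. Cyp11a1, which opens steroid synthesis from cholesterol, ran from 4.79 to 5.72, Cyp17a1 from 4.29 to 5.69 and Cyp21a1 from 4.83 to 5.30. Of the vitamin D enzymes, Cyp2r1 and Cyp27b1, which activate the vitamin, ran from 4.58 to 5.74 and from 4.46 to 5.01, and Cyp24a1, which inactivates it, from 5.39 to 6.19. Of the enzymes that break down retinoic acid, Cyp26b1 ran from 5.81 to 6.78, Cyp26a1 from 3.87 to 4.62 and Cyp26c1 from 3.81 to 4.14. Cyp20a1, an orphan with no settled substrate, read 9.03 and 9.10, 9.0 and 9.38, 9.65 and 9.42, and 9.24 and 8.51, and its lowest value was high-dose RE replicate 2.

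**Figure D2:**
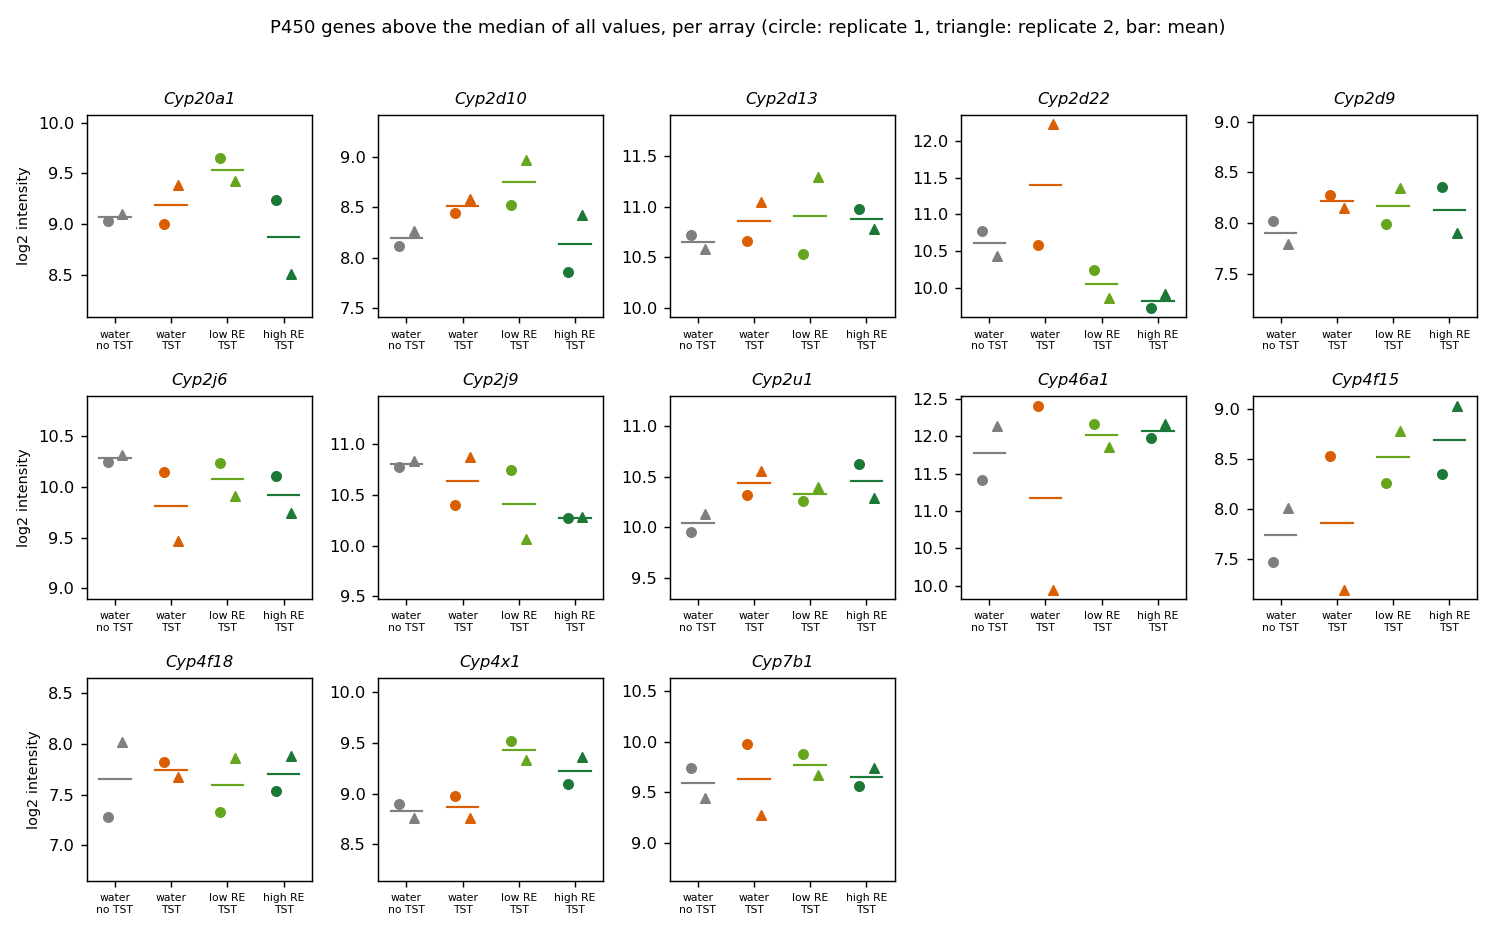
Log2 intensity of the 13 members above the median of all values, 1 panel per gene with its own vertical scale, in the 4 groups; circles are replicate 1, triangles replicate 2 and bars the group mean. Cyp2d22 and Cyp46a1 moved in opposite directions on water with TST replicate 2 (12.23 and 9.95), and the 4 RE arrays of Cyp4x1 lay above the 4 water arrays.

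Replicate agreement differed between groups. The 2 arrays of water with TST were more than 1 apart (log2) for 14 members (14.3%) and for 12.7% of all rows, while the 2 arrays of water without TST were that far apart for 0 members and 3.27% of all rows. For low-dose RE the count was 4 members (6.48% of all rows) and for high-dose RE 1 (1.63%). Water with TST replicate 2 held the highest of the 8 values for 31 members (31.6%) and for 23.5% of all rows. It held the lowest for 14 members (14.3%) and for 21% of all rows. Since that array is 1 of the 2 arrays of the reference group of both RE comparisons, P450 calls in comparisons with stressed water that end without this array are named below, with the value then.

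**Figure D3:**
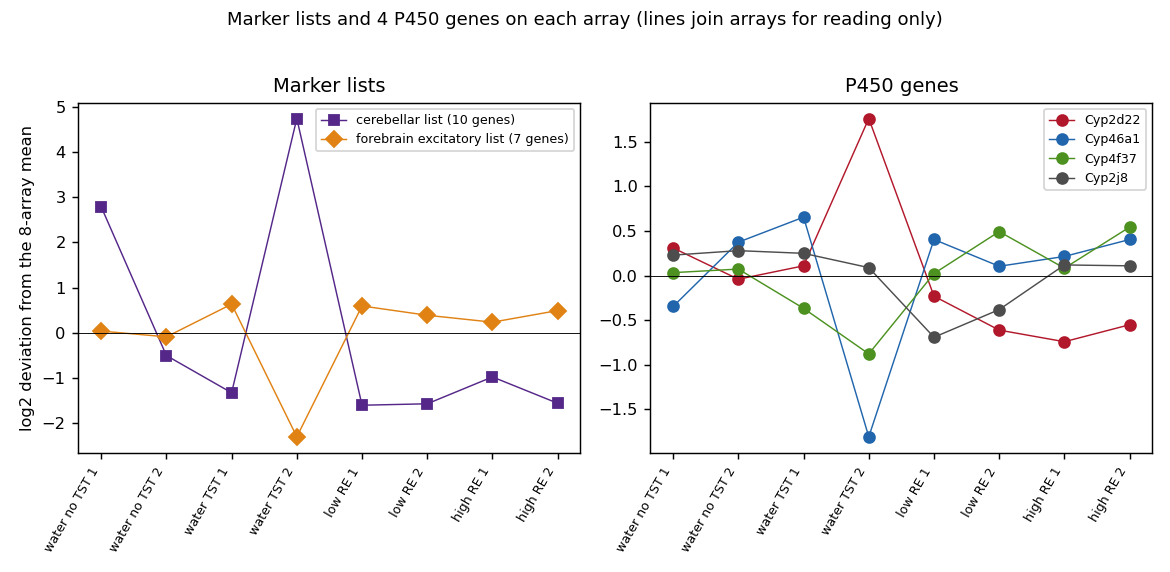
Deviation from the 8-array mean (log2) on each array for the cerebellar and forebrain excitatory marker lists (left) and for Cyp2d22, Cyp46a1, Cyp4f37 and Cyp2j8 (right), with lines joining arrays for reading only. On water with TST replicate 2 the cerebellar list stood at 4.74 and the forebrain list at -2.30, Cyp2d22 was at its highest and Cyp46a1 and Cyp4f37 at their lowest, while Cyp2j8 was lowest on the low-dose RE arrays.

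Few P450 genes passed the study threshold for TST alone, compared within the water groups. The study's own threshold asks for a change of more than 1.2 times, or 0.263 in log2, together with p under 0.05 before adjustment. Passing it were 2 members: Cyp2b9 was higher and Cyp4f37 lower after TST. Over all 22206 rows 2.55% passed (1.29% higher, 1.26% lower), against 2.04% of the members. At an adjusted p under 0.05 (limma, Benjamini-Hochberg over all rows), 0 members and 0 rows passed in this or any other comparison with all 8 arrays; the share past an unadjusted p under 0.05 equals that past the study threshold, and the methods' one-way analysis of variance also left 0 rows after adjustment. The lowest adjusted p here was 0.997. The median difference was 0.10 over the members and 0.01 over all rows, with 60 members higher, 36 lower and 2 equal. The values of 27 members did not overlap between the groups, as was so for 27.5% of all rows.

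Cyp2b9, of a drug-inducible liver subfamily, read 4.24 and 4.31 without TST and 4.72 and 4.99 with it, and 4.63, 4.96, 4.90 and 4.64 in the RE arrays. The difference was 0.58 (SE 0.24, 95% interval 0.02 to 1.14), and it passed in 5 of 15 alternative settings; omitting any of 5 arrays ended the call (both unstressed arrays, both high-dose arrays and the second stressed water array, with 0.45 for the last). Both unstressed arrays were below the 6 stressed arrays, all of them far below the median of all values. Cyp4f37, a member of the leukotriene-hydroxylating Cyp4f group, read 7.37 and 7.41 without TST, 6.97 and 6.46 with it, 7.36 and 7.83 in low-dose RE, and 7.42 and 7.88 in high-dose RE. The TST difference was -0.68 (SE 0.29, 95% interval -1.34 to -0.01), and it passed in 5 of 16 settings, with the call ended by the same 5 omissions (-0.42 for the second stressed water array). The stressed water arrays were the lowest pair for this gene.

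Cyp46a1 did not pass. Its TST difference was -0.59 with a 95% interval from -2.12 to 0.94. The sign depended on which stressed water array was kept: 0.64 without replicate 2, and -1.82 without replicate 1. For Cyp2d22 the size of the difference depended on the array kept, at -0.03 without replicate 2 and 1.63 without replicate 1. Leaving out replicate 1 took the number of members past the study threshold from 2 to 15, or 15.3%, against 16.7% of all rows; leaving out replicate 2 took it to 4 members (4.08%, against 3.29% of all rows), with 0 shared with the full set. With an array left out, the group's single array takes its spread from the other groups. Cyp27a1, at 0.80 with SE 0.55, was 0.11 without replicate 2. Striatal markers were lower with TST (6 of 6, median -1.39, with Pde10a and Penk past the study threshold), and 9 of 10 cerebellar markers were higher (median 0.60). Their part in the P450 differences was not tested.

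Low-dose RE against stressed water had the most P450 genes past the study threshold. These were 6 members (6.12%), against 3.54% of all rows: Cyp4f37, Cyp4f39 and Cyp4x1 were higher with RE, where 1.94% of all rows passed, and Cyp2d22, Cyp2j8 and Cyp4a12b were lower, where 1.61% did. By role, 3 of the 21 Cyp4 members passed upward and 1 downward, and 2 of the 47 Cyp2 members passed downward. None of the other 30 members passed. The lowest adjusted limma p was 0.946. The member median was -0.02 and that of all rows 0.02 (48 members higher, 50 lower), and 23 members did not overlap between groups, against 25% of all rows.

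Cyp2d22 had the largest difference, -1.36 (SE 0.48, 95% interval -2.44 to -0.27, adjusted p = 0.946 in limma). With water with TST replicate 2 omitted, the array on which cerebellar markers were raised, it was -0.53, and with low-dose RE replicate 2 omitted -1.17; neither passed. Cyp2j8, an arachidonate epoxygenase relative, read 5.89 and 5.73 in stressed water and 4.95 and 5.26 in low-dose RE, and 5.87 and 5.92 in unstressed water. The difference was -0.71 (SE 0.23, 95% interval -1.22 to -0.19), and both low-dose arrays were below the other 6 arrays of the study. It passed in 13 of 16 alternative settings, with differences from -0.86 to -0.55, the smallest when low-dose RE replicate 1 was omitted, which ended the call. Cyp4a12b, a fatty acid hydroxylase, read 5.81 and 5.68 in stressed water and 4.96 and 5.20 in low-dose RE, a difference of -0.67 (SE 0.25, 95% interval -1.24 to -0.09). It passed in 12 of 15 settings, and not with the first stressed water array (-0.60) or the first low-dose array (-0.55) omitted. Cyp4a12a, its close paralog, read 4.24 and 4.20 against 5.04 and 4.21, and was not lower.

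Of the higher genes, Cyp4f37 differed by 0.88 (SE 0.29, 95% interval 0.21 to 1.55), and its call ended when the second stressed water array (0.63) or the second low-dose array (0.65) was omitted. Cyp4f39, related to skin lipid synthesis, read 5.33 and 4.72 in stressed water and 5.67 and 5.92 in low-dose RE. Its difference was 0.77 (SE 0.32, 95% interval 0.03 to 1.51), and it passed in 6 of 15 settings. Omitting either RE array of either dose or the second stressed water array (0.47) ended the call, and unstressed water covered the range from 5.11 to 5.87. Cyp4x1 was the only one of the higher genes above the median of all values. Its difference was 0.56 (SE 0.23, 95% interval 0.02 to 1.09), it passed in 4 of 16 alternative settings, and all 16 kept its sign, with 0.45 as the lowest; of the 8 single-array omissions only that of the first stressed water array kept the call.

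Astrocyte markers were lower in the same comparison (6 of 8, median -0.44, with Slc1a3 and Gjb6 past the study threshold), and 6 of 7 thalamic markers passed upward. Meningeal fibroblast markers were lower (7 of 8, median -0.62, with Ogn and Ptgds past it). Forebrain excitatory and choroid plexus markers were higher (7 of 7 each, medians 1.73 and 1.24), and all 10 cerebellar markers were lower, with a median of -3.31 and Calb1 past the threshold. Their part in the P450 differences was not tested.

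High-dose RE against stressed water left 2 members past the study threshold (2.04%), against 3.17% of all rows. Cyp2d22 was lower (1.51% of all rows passed downward) and Cyp4f37 higher (1.67% upward). These comparisons share the stressed water arrays with those of the low dose, so the values of the 2 doses are not independent. The same arrays enter the TST comparison with the opposite sign. Opposite differences with TST and with RE, as for Cyp4f37, are therefore not independent either. The lowest adjusted limma p was 0.973. The member median was -0.05 and that of all rows 0.01, with 44 members higher and 54 lower, and 32 members did not overlap, against 30.5% of all rows. With the first stressed water array omitted 15 members passed (15.3%, against 17% of all rows), and 6 with the second omitted (6.12%, against 3.09%). For the low dose these counts were 16 (16.3%, against 17%) and 9 (9.18%, against 3.49%).

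For Cyp2d22 the high-dose difference was -1.58 (SE 0.48, 95% interval -2.67 to -0.49, adjusted p = 0.973 in limma). Without water with TST replicate 2 it was -0.76 (SE 0.30) and still past the study threshold, and against unstressed water it was then -0.78 (SE 0.25) and past it. Omitting high-dose RE replicate 1 gave -1.49 and ended the call. With all arrays, the difference from unstressed water was also -0.78 and did not pass. Cyp4f37 differed by 0.94 (SE 0.29, 95% interval 0.27 to 1.60), and its call ended without water with TST replicate 2 (0.68) or without high-dose RE replicate 2 (0.71). Its high-dose values of 7.42 and 7.88 lay above the unstressed 7.37 and 7.41. Cyp46a1 differed by 0.89 (SE 0.67), which became -0.35 without water with TST replicate 2. Cyp2e1 was lower on both high-dose arrays (5.27 and 5.18, against 5.49 and 6.18), by -0.61 (SE 0.28, 95% interval -1.25 to 0.03), and did not pass. Cyp26a1, at -0.54 (SE 0.24), and Cyp17a1, at -0.71 (SE 0.35), also missed the threshold. In the same comparison all 10 cerebellar markers were lower (median -3.18), all 7 forebrain excitatory markers higher (median 1.71), and 4 of 7 thalamic markers passed upward. Their part in the P450 differences was not tested.

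**Figure D4:**
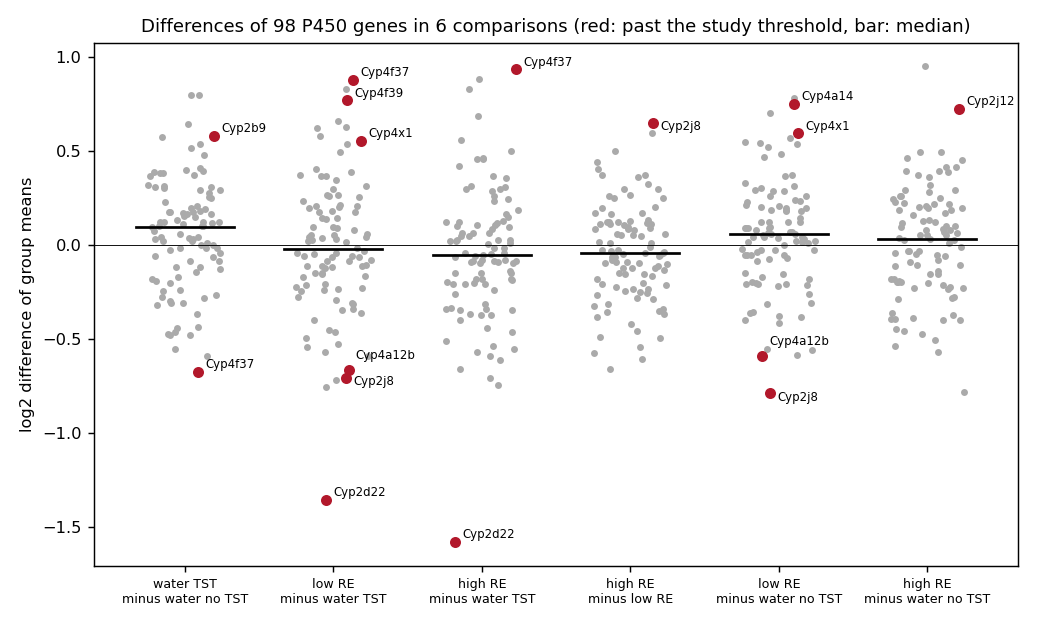
Difference of group means (log2, vertical axis) for all 98 members in each of the 6 comparisons, 1 point per gene with the horizontal position within a comparison spread for reading. Bars are medians, from -0.05 to 0.10, and red points are the members past the study threshold: 2, 6, 2, 1, 4 and 1 from left to right.

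Between the doses, 1 member passed the study threshold. Cyp2j8 was higher at the high dose, where it read 5.76 and 5.75 against 4.95 and 5.26 at the low dose, a difference of 0.65 (SE 0.23, 95% interval 0.13 to 1.17, adjusted p = 1 in limma). It passed in 12 of 16 settings, and not with low-dose RE replicate 1 (0.50) or either high-dose array omitted. That is 1.02% of the members, against 1.91% of all rows (0.946% higher, 0.968% lower). Unstressed water read 5.87 and 5.92 and stressed water 5.89 and 5.73, so the low-dose arrays were lowest and the high-dose arrays lay beside the water arrays. The member median was -0.04 (43 higher, 55 lower), and 21 members did not overlap between doses, against 26.6% of all rows. Cyp20a1 was lower at the high dose by -0.66 (SE 0.30, 95% interval -1.34 to 0.02) and Cyp2d10 by -0.61 (SE 0.28, 95% interval -1.24 to 0.03), and neither passed. For the other 5 members that passed against stressed water, the dose difference was -0.32 for Cyp4f39, -0.23 for Cyp2d22, -0.20 for Cyp4x1, 0.20 for Cyp4a12b and 0.06 for Cyp4f37, with 95% intervals that included both signs.

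Against unstressed water, low-dose RE with TST had 4 members past the study threshold (4.08%, against 3.15% of all rows), 2 in each direction (1.81% of all rows higher, 1.34% lower). Cyp2j8 was lower by -0.79 (SE 0.23, 95% interval -1.31 to -0.27, adjusted p = 0.998 in limma) and passed in 16 of 16 alternative settings, with differences from -0.95 to -0.64. Cyp4a12b was also lower, at 4.96 and 5.20 against 5.43 and 5.91, a difference of -0.59 (SE 0.25, 95% interval -1.17 to -0.01), which passed in 6 of 15 settings and not with the second unstressed array (-0.35) or any RE array omitted. Cyp4a14, a fatty acid hydroxylase of the liver response to peroxisome proliferators, was higher, at 5.53 and 6.14 against 5.02 and 5.15, by 0.75 (SE 0.26, 95% interval 0.15 to 1.35), though not with either unstressed array or low-dose RE replicate 2 (0.45) omitted. Both stressed water arrays read 5.66 for this gene. Cyp4x1 was higher by 0.60 (SE 0.23, 95% interval 0.06 to 1.13) and passed in 12 of 16 settings, though not with either unstressed array or low-dose RE replicate 1 omitted. Without overlap stood 24 members, against 30.9% of all rows.

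High-dose RE with TST against unstressed water had 1 member past the study threshold (1.02%, against 1.97% of all rows). That member was higher (1.14% of all rows higher, 0.824% lower). Cyp2j12, another of the Cyp2j cluster, read 6.85 and 6.40 in unstressed water, 7.05 and 7.02 in stressed water, 7.31 and 6.67 in low-dose RE, and 7.56 and 7.14 in high-dose RE. The high-dose difference was 0.73 (SE 0.30, 95% interval 0.03 to 1.42, adjusted p = 1.00 in limma), and its call ended without the second unstressed array (0.50) or the first high-dose array (0.52). It was in the direction opposite to that of its neighbours in the family Cyp2j9, at -0.54 (SE 0.29), and Cyp2j6, at -0.36 (SE 0.29), neither of which passed. Without overlap stood 38 members, against 35.4% of all rows. Against unstressed water, the 6 striatal markers were lower with both doses (medians -1.28 and -1.10) and the 7 thalamic markers higher (1.39 and 0.98), and their part in the P450 differences was not tested.

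**Figure D5:**
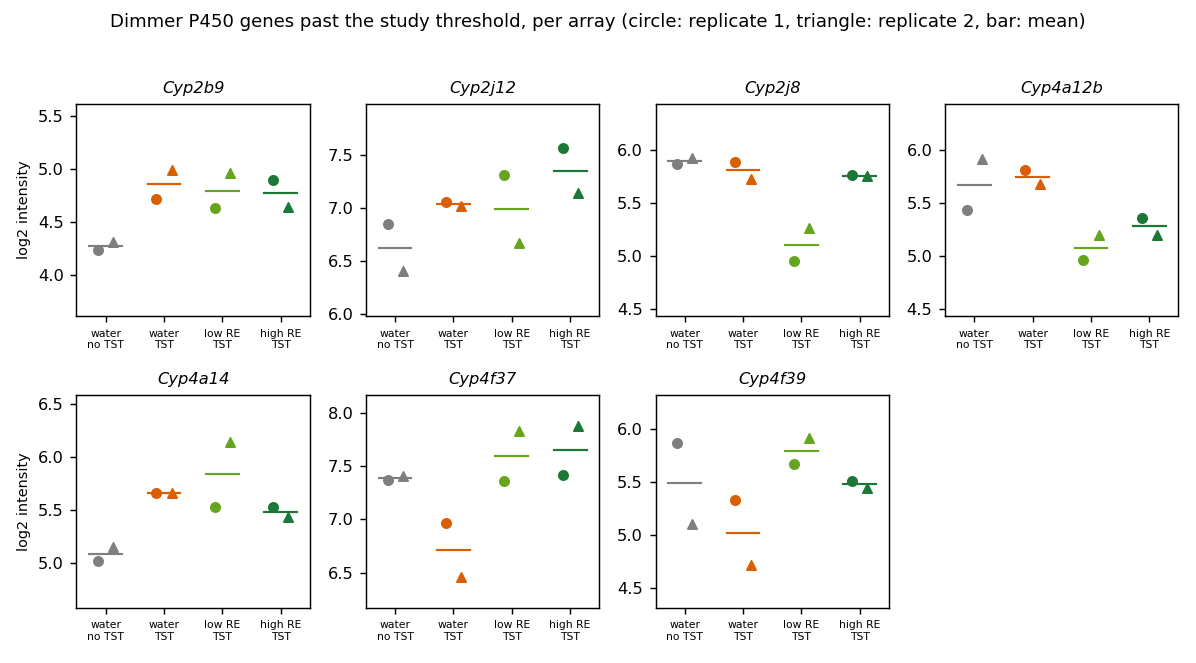
Log2 intensity of the 7 members that passed the study threshold in at least 1 comparison but had a mean below the median of all values, 1 panel per gene with its own vertical scale; circles are replicate 1, triangles replicate 2 and bars the group mean. The low-dose RE arrays of Cyp2j8 (4.95 and 5.26) lay below the other 6, and the stressed water arrays of Cyp4f37 (6.97 and 6.46) below the rest.

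Over the 4 groups together, the moderated F-test put 3 members at an unadjusted limma p under 0.05 (3.06%, against 1.82% of all rows), namely Cyp2j8, Cyp2d22 and Cyp4f37. Each had an adjusted p = 1.00. In all, 9 members (9.18%) passed the study threshold in at least 1 comparison, against 10.8% of all rows, and 2 of them, Cyp2d22 and Cyp4x1, were above the median of all values.

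The redox partners and haem enzymes that serve P450s had 11 measured genes, 9 of them above the median. Por, the cytochrome P450 reductase, and Fdxr were also listed but were not analysed here. Of the measured genes, only Cyb5r3, a cytochrome b5 reductase, passed the study threshold in any comparison. It read 12.43 and 12.10 in water without TST, 12.60 and 12.42 in water with TST, 12.17 and 11.68 in low-dose RE, and 10.97 and 11.35 in high-dose RE. Both high-dose arrays were below the other 6. The high-dose difference from stressed water was -1.35 (SE 0.27), that from unstressed water -1.11 (SE 0.27) and that from the low dose -0.77 (SE 0.27), all past the threshold. Both comparisons with water passed in 16 of 16 alternative settings, and the adjusted limma p was 0.973 for the first. The dose call ended without the first low-dose array (-0.52) or the first high-dose array (-0.58). Cyb5r1, of the same list, was higher with the high dose, and did not pass. It differed by 0.18 from stressed water, 0.11 from unstressed water and 0.52 from the low dose. With the high dose, 6 genes of the list were higher and 5 lower than in stressed water (median 0.06), 10 were lower than in unstressed water (median -0.20) and 7 were lower than with the low dose (median -0.08).

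Receptors that regulate P450 genes had 17 measured members, 5 of them above the median. With TST 12 were lower and 5 higher, and Rxrg, a retinoid X receptor, and Nr2f2 passed downward; 0 passed with either RE dose. Rxrg read 6.98 and 9.17 without TST and 6.71 and 6.15 with it, and 9.17 was its only value above 8 on the 8 arrays. Without that array, on which striatal markers were raised, the difference went from -1.65 to -0.55 and did not pass, nor did it without water with TST replicate 2 (-1.36). Nr2f2 read 11.68 and 11.96 without TST and 11.50 and 9.66 with it; the difference of -1.24 was -0.32 without water with TST replicate 2, and of the 8 single-array omissions only that of the first stressed water array kept the call. Of 15 steroid hormone enzymes other than P450s, Akr1c18 was higher with low-dose RE by 1.29 (SE 0.48), with 7.13 and 5.42 in stressed water and 7.54 and 7.58 in low-dose RE. Its low value was again water with TST replicate 2, without which the difference was 0.43 and did not pass; the call also ended with either low-dose array omitted. Star, which brings cholesterol to Cyp11a1, was lower at the high than at the low dose (4.45 and 4.46 against 5.11 and 5.13), though not past the threshold with either high-dose array omitted.

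Around cholesterol, 1 of 13 synthesis genes passed: Hmgcs1 was higher with high-dose RE (15.61 and 15.85 against 15.21 and 15.22). Of 11 cholesterol transport and oxysterol genes, 0 passed in any comparison. With TST 9 were higher and with low-dose RE 9 were lower, with medians of 0.19 and -0.18. Both counts rest on the same stressed water arrays, so they are not independent. Against its own 8-array mean the list stood at -0.08 on water with TST replicate 1 and 0.31 on replicate 2. Of 11 retinoic acid genes, Rarb passed in 1 comparison, high-dose RE against unstressed water, where it was lower by -1.38 (SE 0.51) with unstressed values of 9.0 and 10.68. Without water without TST replicate 2, the array with raised striatal markers, it was -0.54 and did not pass, and the call also ended with either high-dose array omitted. Of 14 arachidonic acid enzymes outside the Cyp names, Ephx1, an epoxide hydrolase, was lower with low-dose RE by -0.71 (SE 0.30), a call that ended when either stressed water array (-0.65 for the second), the second low-dose array (-0.41) or either high-dose array was omitted. Of 14 conjugating enzymes and transporters, the glutathione transferase Gstm1 was higher with TST, at 14.87 and 14.91 against 14.35 and 14.27, and lower with low-dose RE, at 14.35 and 14.19. The 2 Gstm1 differences use the same stressed water arrays with opposite sign and are not independent. Both Gstm1 calls ended without either stressed water array, though the differences stayed at 0.56 to 0.60 and -0.64 to -0.60. The Gstm1 call with TST also ended without either unstressed array (0.62 and 0.54), and that with low-dose RE held in 5 of the 8 single-array omissions. The exporter Abcc4 was higher in all 3 stressed groups than in unstressed water, by 0.55, 0.60 and 0.53, and the exporter Abcb1a was lower with high-dose RE by -0.53. These 3 Abcc4 comparisons share the unstressed arrays, and each call ended when either of those was omitted; the TST call also ended without water with TST replicate 2 (0.45). The Abcb1a call ended with any of the 8 arrays omitted, and that of Hmgcs1 with either stressed water, unstressed or high-dose array omitted.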

How the data were processed

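RNA from 8 samples was measured on Clariom S arrays, 1 per sample. The authors normalized the arrays with RMA in Transcriptome Analysis Console 4.0.1, per the series design text, and the deposited values are log2 intensities with 2 decimals. They were used as deposited. No genome build is given in the sources used here, and 1359 values exceed 16, of which 0 belong to P450 genes. No detection calls come with them, and precision is limited by the number of arrays.

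Group means were fitted to all 22206 rows and 8 arrays with limma 3.58.1 in R 4.3.3 (4 residual and 4.30 prior degrees of freedom), with two-sided tests, Benjamini-Hochberg adjustment over all rows, 6 comparisons and a moderated F-test. The script was tested on simulated data. Named genes are every P450 gene past the study threshold, up to 10 a direction, a fixed set of P450 genes reported whatever their values, and the genes of 8 pathway lists that passed; 13 cell type lists describe the arrays. Members and lists were chosen with earlier results of these data known. Promoters are RefSeq, GRCm38.p6, and gene names were matched by gene identifier. Alternatives were the replicate number as a block, the variance prior, a filter on dim rows, quantile normalization, the row per gene, each array left out, both arrays with raised cerebellar markers left out, only the compared groups, and the methods' one-way analysis of variance.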

Additional observations from a re-analysis of the deposited data

How the results depend on the processing

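The number of P450 genes past the study threshold stayed within 1.5 times its value in 3 of 16 settings for TST in water, 13 of 16 for low-dose RE, 11 for high-dose RE, 10 for the dose comparison, 8 for each comparison with unstressed water and 8 of 15 for the F-test. A kept number need not mean the same genes. After quantile normalization, 1 of the 2 TST genes and 5 of the 6 low-dose genes were shared with the main fit. Fewer were shared in some settings that left out arrays. Numbers outside the range of 1.5 times are given here with the share of all rows past the same threshold. For TST in water (2 genes) it was 0 with the replicate block (2.24% of all rows), 0 with a trended and robust variance prior (2.36%), 1 of the 39 members left without the dimmest 25% of rows (2.4%), 0 with only the compared groups (1.59%) and 7 by one-way analysis of variance (2.72%). For low-dose RE (6) it was 1 with only the compared groups (1.2%) and 2 by analysis of variance (2.19%). For high-dose RE (2) it was 6 after quantile normalization (3.73%), 5 without both arrays raised in cerebellar markers (2.81%) and 1 by analysis of variance (2.92%), and for the dose comparison (1) it was 2 with the replicate block (1.84%). Against unstressed water, low-dose RE (4) gave 2 without the dimmest rows (2.82%), 7 after quantile normalization (3.61%) and 2 by analysis of variance (3.45%), and high-dose RE (1) gave 2 without both raised arrays (3.17%), 6 with only the compared groups (5.94%) and 5 by analysis of variance (4.39%). The F-test (3) gave 1 with the replicate block (1.51%) and 1 without both raised arrays (2.27%). Leaving out each array in turn gave 0 to 15, 4 to 16, 2 to 15, 1 to 6, 2 to 8 and 0 to 3 genes in the 6 comparisons and 0 to 7 in the F-test; the upper ends for TST and both doses came from leaving out water with TST replicate 1, where 16.7%, 17% and 17% of all rows passed. The number of genes above the median (13) was 13 to 14 under the same omissions and 5 with the 75th percentile as the limit. The cause of these moves was not tested. Of 251 alternatives to the 16 gene and comparison pairs of P450 genes that passed, 163 kept the call, 88 kept the direction without it, and 0 reversed; for the other pathway genes the numbers were 164, 91 and 0 of 255. All of these pairs were chosen because they passed with all arrays. Many settings, such as leaving out an array of another group, do not change the difference itself. The lack of reversals was therefore largely fixed in advance and is no measure of a stable direction. The labels give same-numbered replicates of the groups only a number in common, so no pairing was used in the main fit. Correlations of their replicate differences ran from -0.29 to 0.17. These values cannot exclude a pairing or a shared batch, because marker lists also differed between replicates.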

Other observations

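Other P450 enzymes lie outside the naming rule. Cyp51, the sterol demethylase of cholesterol synthesis, has no letter after its family number. It read 12.39 and 12.55 in water without TST, 11.87 and 11.82 in water with TST, 12.13 and 11.90 in low-dose RE, and 12.86 and 12.16 in high-dose RE, so that both unstressed arrays were above both stressed water arrays. The TST difference was -0.63 (SE 0.28) and the high-dose difference from stressed water 0.67 (SE 0.28), the second past the study threshold. Its call ended with any array omitted other than the second high-dose array, and with the first high-dose array omitted the difference was 0.32. Ptgis, the prostacyclin synthase, and Tbxas1, the thromboxane synthase, are P450s by structure. Ptgis ran from 6.13 to 7.03 and Tbxas1 from 5.83 to 6.68 over the 8 arrays, below the median of all values, and neither passed in any of the 6 comparisons.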
